A study of Rattus norvegicus with 82 samples.

Results

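The genes of oxidative phosphorylation were followed through heart muscle cells from both ventricles, right (RV) and left (LV), of 41 rats. Members were chosen by symbol alone: all genes whose symbols begin with Nduf, Uqcr, Atp5 or Cox4 to Cox8, plus Sdha, Sdhb, Sdhc and Sdhd. Of 17337 genes counted, 87 matched, and the 82 with a mean raw count of at least 10 over all 82 libraries were kept. All 82 also entered the test, among 11954 genes tested. The 5 genes below the minimum were Ndufa1 (at 0 in 78 of 82 libraries, highest count 4), Ndufs6 (at 0 in 45), Cox6b2 (at 0 in 26, highest count 11), Cox6c-ps1 and Cox8c (at 0 in all 82). The Ndufs6 row carries the gene ID that RefSeq now gives to the pseudogene Ndufs6-ps1, so its low counts are not read as the level of the subunit gene, and the low counts of Ndufa1 are not read as absence of the subunit.

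All rats were F1 offspring of female Wistar Kyoto and male Lewis rats and were given a loose clip on the pulmonary artery (PAB), against which the RV has to pump as the animal grows, a clip on the aorta (AOB), which burdens the LV instead, or a sham operation. Hearts were taken in the compensated stage (H, labelled 11 weeks old, 7 weeks after surgery) or the decompensated stage (F), for which the labels give 31 weeks of age and 26 weeks after surgery for Sham-F and AOB-F, and 28 and 22 weeks for PAB-F. There were 7 Sham-H (3 males), 6 PAB-H (4 males), 6 AOB-H (2 males), 9 Sham-F (4 males), 6 PAB-F (4 males) and 7 AOB-F animals (4 males), each giving 1 RV and 1 LV library. The weeks in the paper are not those of the labels: its text places the harvest later at each stage, again with PAB-F before AOB-F. PAB-F animals were thus younger than their Sham-F controls, and sex was not balanced across groups. Cells were freed with collagenase and enriched by centrifugation, so a library stands for a cardiomyocyte-enriched pool of 1 ventricle of 1 animal. For comparisons within 1 ventricle, p-values measure the spread between animals. Where RV is set against LV, the main fit treats the 2 libraries of an animal as independent. Its p-values there do not measure the spread of differences within animals.

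Oxidative phosphorylation is how the heart makes nearly all of its ATP. Complex I (NADH dehydrogenase, Nduf genes) and complex II (succinate dehydrogenase, Sdh genes) feed electrons from NADH and succinate into the ubiquinone pool, complex III (Uqcr genes) passes them to cytochrome c, and complex IV (cytochrome c oxidase, Cox genes) hands them to oxygen. The proton gradient built on the way drives complex V, the ATP synthase (Atp5 genes). The mitochondrial genome encodes a few core subunits, none of which was in the table, and nuclear genes encode the others, most of which are analysed here. Nuclear respiratory factor 1 (NRF1), GA-binding protein (GABPA), the oestrogen-related receptors (ERR) and the coactivator Ppargc1a are known regulators of these nuclear genes.

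RefSeq promoters were matched for 70 of the 82 genes, and 12 had no match. In the 250 bases before the start, the NRF1 motif GCGCANGCG was found on either strand in 16 of 70 promoters (22.9%), against 5.74% of 27457 promoters of all genes. The GABPA motif CCGGAAG was in 18 (25.7%, against 8.11%), whereas the ERR motif TCAAGGTCA and the YY1 motif AAGATGGCG were in 1 each (1.43%, against 0.397% and 0.768%). The SP motif GGGCGGGG was in 7 (10%, against 15.9%). In all, 38 of 70 promoters held at least 1 of these motifs. The bases G and C made up 55.9% of the members' promoters and 52.2% of all promoters. The part of this difference in the motif shares was not tested. A match is a run of letters and no measured binding. The promoters of 2 pairs of core subunits are shown because the members of each pair went in opposite directions between the ventricles of older animals: Ndufs1 and Ndufs8, which carry iron-sulphur clusters of complex I, and Uqcrc1 and Uqcrc2, the core proteins of complex III. Capitals mark NRF1 or GABPA motifs on either strand, and the last base is the one before the start. Positions are on build GRCr8 and each run reads 5′ to 3′ on the gene's strand: Ndufs1 at chr9:72073606-72073855 (minus strand), Ndufs8 at chr1:210573699-210573948 (minus), Uqcrc1 at chr8:118467973-118468222 (plus) and Uqcrc2 at chr1:184598990-184599239 (plus).
Ndufs1: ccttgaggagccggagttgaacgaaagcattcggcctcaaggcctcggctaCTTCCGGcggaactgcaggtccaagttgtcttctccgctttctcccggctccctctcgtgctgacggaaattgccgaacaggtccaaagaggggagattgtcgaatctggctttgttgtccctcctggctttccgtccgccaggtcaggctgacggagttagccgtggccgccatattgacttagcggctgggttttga
Ndufs8: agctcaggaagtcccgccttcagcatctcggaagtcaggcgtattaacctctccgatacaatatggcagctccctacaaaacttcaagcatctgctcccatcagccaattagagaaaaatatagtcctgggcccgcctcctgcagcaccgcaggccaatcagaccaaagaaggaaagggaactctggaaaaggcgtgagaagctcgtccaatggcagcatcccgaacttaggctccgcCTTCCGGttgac
Uqcrc1: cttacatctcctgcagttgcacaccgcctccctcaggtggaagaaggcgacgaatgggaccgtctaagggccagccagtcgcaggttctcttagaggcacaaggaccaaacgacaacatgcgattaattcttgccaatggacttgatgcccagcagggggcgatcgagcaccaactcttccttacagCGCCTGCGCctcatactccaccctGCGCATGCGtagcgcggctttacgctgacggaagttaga
Uqcrc2: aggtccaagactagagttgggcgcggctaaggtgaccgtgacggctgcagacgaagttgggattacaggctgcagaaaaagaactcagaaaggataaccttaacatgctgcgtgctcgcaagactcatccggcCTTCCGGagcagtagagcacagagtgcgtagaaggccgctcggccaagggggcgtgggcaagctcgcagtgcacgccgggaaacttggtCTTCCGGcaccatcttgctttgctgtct

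Ndufs1, Ndufs8 and Uqcrc2 carry the GABPA motif (at -199, at -12, and at -117 and -28, counted to the first base of the motif), and Uqcrc1 the NRF1 motif (at -63 and -39). Both genes of the complex I pair hold the GABPA motif, and a motif is no evidence that the factor acts there.

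Libraries held 6675287 to 19665439 counts on genes (median 13074486). Markers of ventricular cardiomyocytes (9 genes, among them Myh6 and Tnnt2) took 4.83% to 14.3% of counts. Of the marker genes in the 5 lists, only Col1a2 was at 0 in any library. Endothelial markers (7 genes) had group medians of 0.311% to 0.346% in the older LV groups and 0.0813% to 0.161% elsewhere, and mural markers (7 genes) 0.0763% to 0.101% and 0.0314% to 0.0480%. Over all libraries fibroblast markers (10 genes) took 0.0151% to 0.304% and macrophage markers (8 genes) 0.00525% to 0.0370%. The first principal component of 5000 genes held 47.7% of the variance and set the older LV libraries (24.6 to 78.5, except LV PAB-F replicate 5 at 2.86) against the RV libraries (-50.9 to 12.9). 4 younger LV libraries lay above 20 with the older ones: LV Sham-H replicates 4 (65.2) and 5 (33.1), LV PAB-H replicate 2 (57.6) and LV AOB-H replicate 6 (29.7). Results on younger LV libraries are therefore given with and without these 4.

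By transcript counts summed over genes, complex V took the largest share of the 5 complexes. All members together took 2.41% to 5.11% of a library's counts (median 4.36%), of which the complex V genes held 1.08% to 2.33%, complex I 0.574% to 1.27%, complex III 0.293% to 0.688%, complex IV 0.262% to 0.936% and complex II 0.171% to 0.333%. Per length, in FPKM as the median over libraries, the highest gene of each complex was Atp5b (4498, the catalytic beta subunit of ATP synthase), Cox8b (2097, the heart and muscle form of subunit VIII), Uqcrfs1 (1087, the Rieske iron-sulphur protein), Ndufb9 (803, an accessory subunit of complex I) and Sdhb (608, the iron-sulphur subunit of complex II). The lowest, in the same order of complexes, were Atp5f1 (0.989), Ndufa4l2 (2.92), Uqcrb (82.7), Ndufa10l1 (0.919) and Sdhd (485). Assembly and associated factors, 9 genes such as Ndufaf4 and Cox7a2l, ran from 9.67 (Ndufaf7) to 103 (Cox7a2l), with a median of 30.7 over genes against 336 for the 32 genes of complex I. Several of these genes have near-identical copies in the genome, so a gene at a low level, Atp5f1 among them, may share reads with a copy, and how reads that map to several places were counted is not given in the sources used here.

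The group median of the module level was lowest in RV PAB-H and next lowest in RV PAB-F. The median log2 CPM (counts scaled to the effective library size, prior count 2) over the 82 genes was 7.84 to 8.26 (median 8.02) in RV Sham-H and 7.77 to 8.32 (median 8.07) in LV Sham-H. In RV PAB-H the level was 7.26 to 8.13 (median 7.78), and in RV PAB-F it was 7.51 to 8.03 (median 7.89) against 7.83 to 8.35 (median 7.96) in RV Sham-F. The banded and sham libraries of the RV overlapped at both stages, and in RV PAB-H the 4 males ran from 7.26 to 7.83, below the 2 females at 8.07 and 8.13. In the older LV the range was 7.97 to 8.57 (median 8.35) for Sham-F and 7.84 to 8.26 (median 8.04) for AOB-F. LV AOB-H ran from 6.77, the lowest value of all 82 libraries, to 8.05 (median 8.0). That library, replicate 6, also had the fewest counts. The remaining groups had medians of 8.03 (LV PAB-H), 8.13 (RV AOB-H), 8.07 (RV AOB-F) and 8.19 (LV PAB-F). In bulk samples like these, fewer cells of a type and less RNA per cell cannot be told apart.

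**Figure D1:**
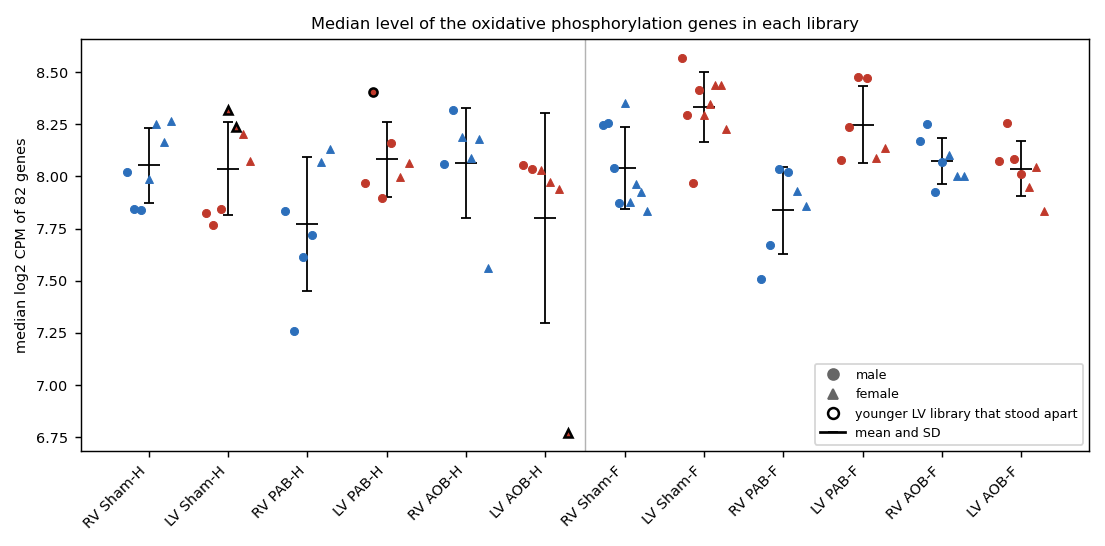
Median log2 CPM of the 82 genes in each library (y axis) by group (x axis, RV in blue, LV in red), with circles for males, triangles for females, a black outline for the 4 younger LV libraries that stand apart, and bars for the mean and SD of each group. The means of RV PAB-H and RV PAB-F lie below those of their sham groups with overlapping libraries, and LV AOB-H replicate 6 lies lowest at 6.77.

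Banded libraries were tested against sham libraries from the same ventricle and stage with edgeR's quasi-likelihood test and Benjamini-Hochberg adjustment over 11954 genes. A gene is called changed at an adjusted p under 0.05. Backgrounds belong to the fit over all 12 groups, or for the sexes to the fit by sex. For counts under other fits the share of all genes called is given only where printed. Elsewhere such counts show how the number moved and are not read against a background. Normalised read counts are counts scaled to the mean effective library size of 13279120.

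In the compensated RV upon PAB, 0 of 82 members were called (background: 4.5% of all genes tested), although 78 of 82 had a fold change below 0. The median log2 fold change was -0.26, against 0.0043 over all genes, -0.17 over 66 mitochondrial ribosomal protein genes and -0.30 over 76 cytosolic ones. 23 members had an unadjusted p under 0.05, as did 2462 of the 11954 genes tested, and DESeq2 called 0 members as well. Without RV PAB-H replicate 6, 8 members were called, and without replicate 5, 1. By complex the medians were -0.25 for I, -0.18 for II, -0.22 for III, -0.34 for IV, -0.39 for V and -0.071 for the factors. Of the 23 genes, 9 each belonged to complexes IV and V and 5 to complex I.

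The lowest p belonged to Atp5j2, subunit f of the ATP synthase, with 304 to 1063 (median 547) normalised read counts in RV PAB-H and 638 to 1465 (median 837) in RV Sham-H (log2 fold change -0.64, SE 0.23, adjusted p = 0.0917). Cox7c, a structural subunit of complex IV, had 727 to 2408 (median 1097) against 1161 to 3097 (median 1459) (log2 fold change -0.68, SE 0.29, adjusted p = 0.148). For both genes the groups overlapped and the test was not passed. Atp5c1, the central stalk of the ATP synthase, had a log2 fold change of -0.39 (SE 0.15, adjusted p = 0.107). Against this direction stood Cox4i2, the alternative form of complex IV subunit 4, which is known to be oxygen-responsive. It was at 58 to 109.5 (median 72.8) in RV PAB-H and 34.3 to 57.6 (median 48.5) in RV Sham-H, without overlap, and missed the threshold (log2 fold change 0.73, SE 0.35, adjusted p = 0.216).

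At the failing stage, 4 of 82 members were lower in the RV upon PAB and 0 were higher (background: 11.1% of all genes called, 3.42% called lower). The share of members called lower was thus close to that background. The count depended on the fit: a fit to RV PAB-F and RV Sham-F alone called 20 members, DESeq2 7, and a fit with the first principal component as a covariate 8. 79 of 82 fold changes were below 0, with a median of -0.25 (0.016 over all genes, -0.22 over the mitochondrial and -0.19 over the cytosolic ribosomal protein genes), and 21 had an unadjusted p under 0.05. Among all 11954 genes tested 3332 had such a p, a share close to that of the members. All 32 complex I genes were below 0 (median -0.22), and the medians of the other complexes were -0.20 (II), -0.22 (III), -0.34 (IV), -0.31 (V) and -0.12 (factors).

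Ndufb10 and Ndufb5, accessory subunits in the membrane arm of complex I, were both lower. Ndufb10 had 407 to 802 (median 535) normalised read counts in RV PAB-F and 623 to 1338 (median 738) in RV Sham-F (log2 fold change -0.62, SE 0.21, adjusted p = 0.0473). Ndufb5 had 1942 to 3585 (median 3032) against 3310.1 to 5177 (median 3913) (log2 fold change -0.46, SE 0.14, adjusted p = 0.0230). The next 2 genes belong to complexes V and IV. Atp5c1 had 4883 to 11347 (median 9042) against 10940.2 to 15133 (median 11533) (log2 fold change -0.50, SE 0.14, adjusted p = 0.0145). Cox5a, a structural subunit of complex IV, had 3341 to 6359.8 (median 5482) against 5986 to 8043 (median 6889) (log2 fold change -0.41, SE 0.14, adjusted p = 0.0429). The ranges of all 4 genes overlapped between the groups. Over the 15 fits that each left out 1 library, Ndufb10 stayed called in 6, Ndufb5 in 13 and Atp5c1 in 14. The number of calls rested on single libraries: without RV PAB-F replicate 1, 2 or 4 it was 0, 1 or 7, and without RV Sham-F replicate 5 or 7 it was 2.

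Atp5a1 and Ndufs1 did not overlap between RV PAB-F and RV Sham-F but missed the threshold. How many of all genes tested also lay without overlap was not counted, so this describes single genes only. Atp5a1, the alpha subunit of the ATP synthase, had 40272 to 78124 (median 69772) normalised read counts against 78186 to 90315 (median 80834) (log2 fold change -0.31, SE 0.13, adjusted p = 0.102). Ndufs1, the largest subunit of complex I, had 10320.2 to 18395 (median 16414) against 19023 to 22803 (median 20893) (log2 fold change -0.40, SE 0.23, adjusted p = 0.234). Sdha, the flavoprotein of complex II, had a log2 fold change of -0.42 (SE 0.17, adjusted p = 0.0992). Endothelial markers moved in the loaded RV too, with 0.0887% to 0.226% of counts in RV PAB-H (median 0.144%) against 0.0755% to 0.109% in RV Sham-H (median 0.0850%), and their part in these results was not tested.

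**Figure D2:**
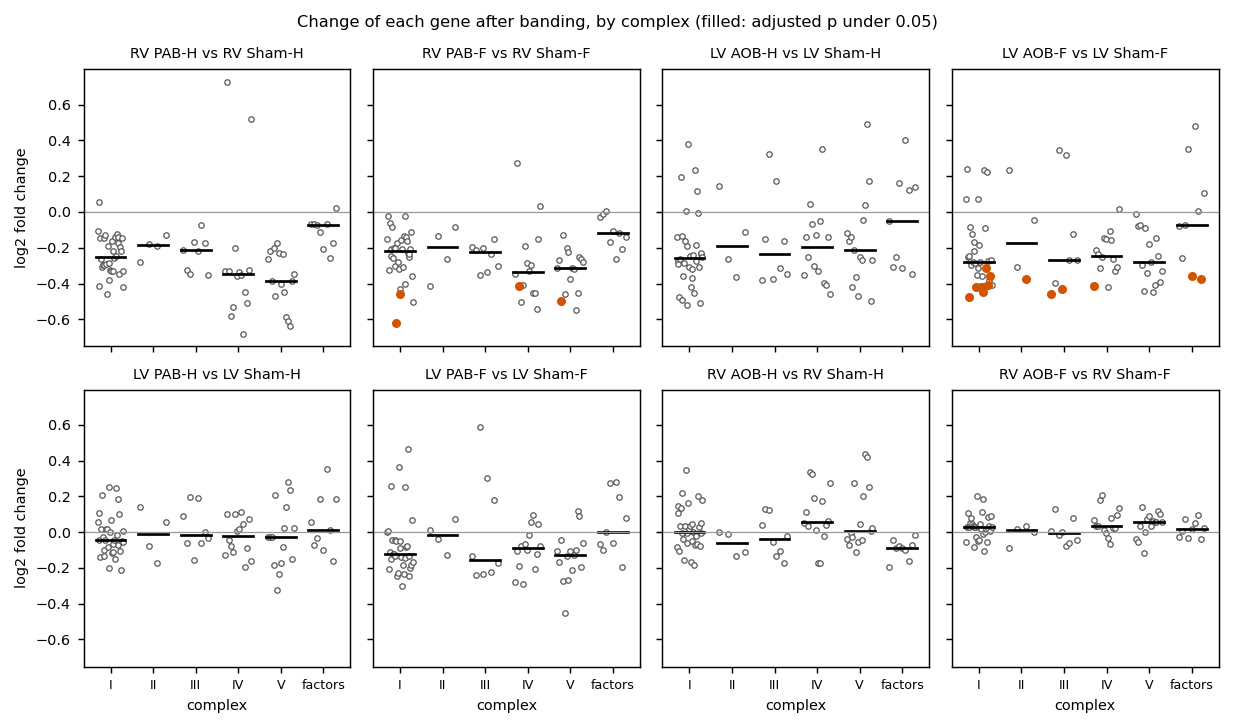
Log2 fold change of each of the 82 genes after banding (y axis, banded over sham) by complex (x axis), with 1 panel for each of the 8 comparisons, filled points for genes with an adjusted p under 0.05 and a line at the median of each complex. The points of the loaded ventricles lie mostly below 0, with 14 filled for LV AOB-F and 4 for RV PAB-F, and in the other ventricle no point is filled, with 61 of 82 below 0 for LV PAB-F and 59 of 82 above 0 for RV AOB-F.

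The compensated LV upon AOB gave no call either (0 of 82 with edgeR and with DESeq2, 27 at an unadjusted p under 0.05, background 0.0167%). Of all 11954 genes tested, 2387 were at an unadjusted p under 0.05. 65 of 82 fold changes were below 0 and the median was -0.25 (0.015 over all genes). This median rested on libraries that stand apart: it was 0.00042 without the 4, with 41 genes below 0 and 41 above, and -0.10 without LV AOB-H replicate 6 alone. Ndufb11, an accessory subunit of complex I, had 2102 to 4776 (median 3728) normalised read counts in LV AOB-H and 3932 to 8190.4 (median 5002) in LV Sham-H (log2 fold change -0.52, SE 0.16, adjusted p = 0.0986). Within males (2 against 3) the median was 0.13, and within females (4 against 4) -0.45, with 34 members called lower in females where 13.7% of genes were called. The libraries that stand apart include 3 of these 8 female libraries. Without the 4 libraries that stand apart 0 members were called in females (median -0.14, 1 at an unadjusted p under 0.05). Of all 12379 genes tested there, 0 were called.

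In the fit over all 12 groups the failing LV upon AOB had the most members called after banding, an order that turned in fits to the groups compared alone (0 in LV AOB-F, 20 in RV PAB-F). 14 of 82 were lower and 0 were higher (background: 12.9% called, 4.35% called lower), a larger share than among all genes. 69 of 82 fold changes were below 0 and 33 had an unadjusted p under 0.05, as did 3428 of the 11954 genes tested. The median was -0.26, against 0.038 over all genes, -0.10 over mitochondrial and 0.062 over cytosolic ribosomal protein genes. Complex I supplied 8 of the 14 (median -0.28), complex III 2 (-0.27), the factors 2 (-0.073), and complexes II (-0.18) and IV (-0.24) 1 each. 0 genes of complex V were called, although its median of -0.28 was as low as that of complex I.

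Ndufa2, an accessory subunit of complex I, had 1121 to 1909 (median 1486) normalised read counts in LV AOB-F and 1042 to 3101 (median 2028) in LV Sham-F (log2 fold change -0.47, SE 0.15, adjusted p = 0.0284). Uqcr10, a small subunit of complex III, had 3854 to 5442 (median 4384) against 3979 to 7913 (median 5922) (log2 fold change -0.46, SE 0.16, adjusted p = 0.0478). Ndufb9 had 6654 to 10515 (median 7665) against 6593 to 19428 (median 10591) (log2 fold change -0.45, SE 0.14, adjusted p = 0.0288). All 3 were lower in the median and overlapped between the groups. Over the 16 fits that each left out 1 library, Uqcr10 stayed called in 5, and Ndufa2 and Ndufb9 in 11 each.

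Among core subunits, Uqcrc1 had 16876 to 34165 (median 21614) normalised read counts against 24403 to 42992 (median 30729.8) (log2 fold change -0.43, SE 0.14, adjusted p = 0.0253). The log2 fold change was -0.36 (SE 0.11, adjusted p = 0.0225) for Ndufv1, which binds NADH, -0.41 (SE 0.13, adjusted p = 0.0253) for Ndufs7 and -0.31 (SE 0.11, adjusted p = 0.0393) for Ndufs3, both in the arm that leads electrons to ubiquinone. Sdhc, a membrane anchor of complex II, changed by -0.37 (SE 0.11, adjusted p = 0.0200). Cox4i1, the common form of complex IV subunit 4, changed by -0.41 (SE 0.15, adjusted p = 0.0472). The other called genes were Ndufb7, Ndufb11, Ndufc2 and the assembly factors Ndufaf3 and Ndufaf6, with log2 fold changes from -0.42 to -0.36.

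Several settings bear on these 14 calls. The spread was shared across all 12 groups, and a fit to LV AOB-F and LV Sham-F alone called 0 members (15 genes in all). Correction for gene length left 5 of them, and leaving out single libraries gave 1 (without LV Sham-F replicate 7) to 18 (without replicate 3). The 1 to 18 include 1 without LV AOB-F replicate 7, 2 without replicate 6, 6 or 7 without replicate 5 or 1, 6 without LV Sham-F replicate 1 or 2, and 9 without replicate 6. In males the median was -0.16 with 0 members called, where 0 of all 12421 genes tested were called. In females it was -0.45 with 33 lower and 2 higher where 25.2% of genes were called. The difference between the sexes passed the test for 2 members (background 3.26%): Cox7b, a subunit of complex IV, responded more upwards in females by 1.23 (log2, SE 0.32, adjusted p = 0.0196), and Atp5g1, a form of the membrane ring subunit c, more downwards, by -1.04 (SE 0.30, adjusted p = 0.0338). Macrophage markers were at a median of 0.0182% in LV AOB-F and 0.00974% in LV Sham-F, and their part was not tested.

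In the ventricle that banding did not load, 0 members were called in any of the 4 comparisons by edgeR or by DESeq2. In the LV upon PAB the medians were -0.027 (PAB-H, background 0%, 0 members at an unadjusted p under 0.05, and 0.016 without the libraries that stand apart) and -0.10 (PAB-F, background 0%, 4), with 46 and 61 of 82 fold changes below 0. Of all 11954 genes tested, 305 (PAB-H) and 454 (PAB-F) had an unadjusted p under 0.05. The PAB-F median was -0.056 without LV PAB-F replicate 1 and -0.18 without replicate 4, and the PAB-H median ran from -0.082 (without LV PAB-H replicate 2) to 0.051 (without LV Sham-H replicate 4). In the RV upon AOB they were -0.0044 (AOB-H, background 0%, 0) and 0.029 (AOB-F, background 0.0669%, 0), with 39 and 59 of 82 above 0, and leaving out single libraries turned the sign of both (-0.037 to 0.069 and -0.0034 to 0.047). RV PAB-F and RV AOB-F were set against the same RV Sham-F libraries, and LV PAB-F and LV AOB-F against the same LV Sham-F libraries.

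Whether the loaded ventricle responded more than the other was tested as a difference of responses at the failing stage. For PAB-F, RV minus LV, 0 members were called (background 0.351%, 7 at an unadjusted p under 0.05, DESeq2 0) and the median difference was -0.13, or -0.059 without LV PAB-F replicate 4. Among all 11954 genes tested 1538 had an unadjusted p under 0.05. The difference was -0.45 (95% interval -0.84 to -0.056, adjusted p = 0.337) for Atp5c1. Ndufb5 differed by -0.41 (95% interval -0.80 to -0.021, adjusted p = 0.361). For AOB-F, LV minus RV, 0 were called (background 0%, 22 at an unadjusted p under 0.05, DESeq2 0) with a median of -0.31. Here 1161 of all 11954 genes tested had an unadjusted p under 0.05. The difference was -0.63 (95% interval -1.04 to -0.23, adjusted p = 0.431) for Ndufb9 and -0.41 (95% interval -0.72 to -0.089, adjusted p = 0.472) for Sdhc. The calls in the loaded ventricles are not shown to differ from the response on the other side.

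Between the ventricles the members of single complexes went in opposite directions, most of all in older animals. In Sham-F, 25 of 82 were higher and 39 lower in the RV than in the LV (background: 74.3% called, 35.6% higher and 38.6% lower), a share near that of all genes, with a median of -0.29. With a correction for gene length, 30 were higher and 25 lower and the median was 0.089, so the direction of the module as a whole depends on that correction. With the animal as a block 69 were called. The shares of all genes called with the length correction and with the block are not given here. Higher and lower calls were 7 and 18 of 32 in complex I (median -0.40), 2 and 1 of 4 in II (0.29), 3 and 4 of 8 in III (-0.33), 3 and 8 of 14 in IV (-0.59), 5 and 6 of 15 in V (-0.28) and 5 and 2 of 9 among the factors (0.48). Mitochondrial ribosomal protein genes had a median of 0.26 and cytosolic ones -0.49.

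The core proteins of complex III show this. Uqcrc2 had 22199 to 25685 (median 23914) normalised read counts in RV Sham-F and 4276 to 7495 (median 5329) in LV Sham-F (log2 fold change 2.02, SE 0.19, adjusted p = 1.41e-14). Its partner Uqcrc1 had 19859 to 21654 (median 21232) in the RV and 24403 to 42992 (median 30729.8) in the LV (log2 fold change -0.61, SE 0.13, adjusted p = 1.64e-05). For both genes the ventricles did not overlap. The log2 ratio of Uqcrc2 to Uqcrc1 counts stayed between -0.15 and 0.34 in all 41 RV libraries. In the LV it was -2.98 to 0.0073 (median -0.42) in Sham-H and -3.33 to -1.71 (median -2.30) in Sham-F, with -2.88 to -0.67 (median -1.43) in AOB-F and -2.70 to -0.50 (median -2.17) in PAB-F. The lowest value of the younger LV groups was that of LV Sham-H replicate 4, which stands apart.

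Complex I held a like pair. Ndufs1 had 19023 to 22803 (median 20893) normalised read counts in RV Sham-F against 3889 to 7205 (median 4958) in LV Sham-F (log2 fold change 1.98, SE 0.21, adjusted p = 2.50e-13), and Ndufs8 had 2722 to 3903 (median 3435) against 4997 to 8328 (median 6538) (log2 fold change -0.95, SE 0.15, adjusted p = 4.76e-08). The log2 ratio of Ndufs1 to Ndufs8 was 2.29 to 3.07 (median 2.57) in RV Sham-F and -0.96 to 0.28 (median -0.36) in LV Sham-F, so no library of one ventricle reached the other. The genes differ in length (2.476 kb for Ndufs1, 0.749 kb for Ndufs8). This pair was not recomputed with the length correction in Sham-F, and the part of length was not tested.

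**Figure D3:**
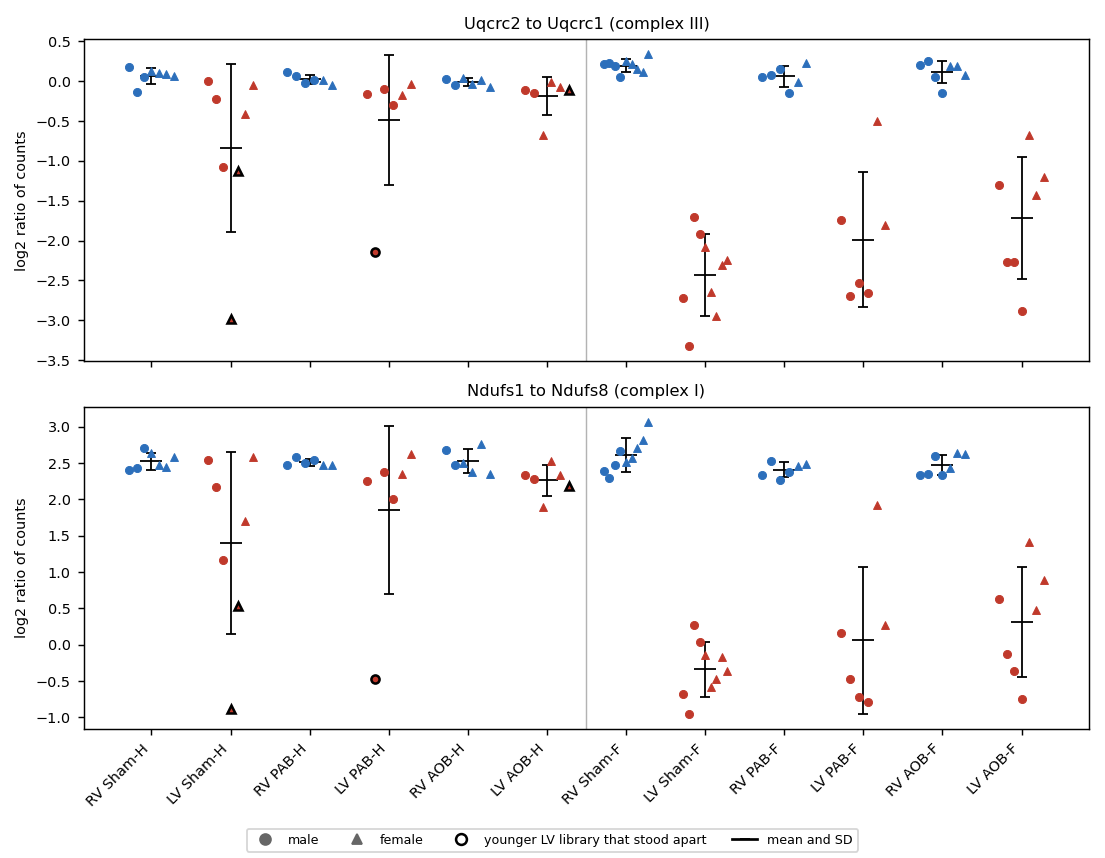
Log2 ratio of Uqcrc2 to Uqcrc1 counts and of Ndufs1 to Ndufs8 counts in each library (y axis) by group (x axis, RV in blue, LV in red), with circles for males, triangles for females, black outlines for the 4 younger LV libraries that stand apart, and bars for mean and SD. RV libraries stay within a narrow band for Uqcrc2 to Uqcrc1, and most older LV libraries lie far below it, with Sham-F at -3.33 to -1.71.

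Of all members, Ndufaf4, an assembly factor of complex I, had the largest excess in the older RV, with 875 to 1157 (median 1049.9) normalised read counts against 129 to 360.2 (median 214) (log2 fold change 2.2, SE 0.23, adjusted p = 1.19e-13). Uqcrb, the ubiquinone-binding protein of complex III, had 1069 to 1967 (median 1331) against 224 to 483 (median 321) (log2 fold change 2.11, SE 0.23, adjusted p = 5.79e-13). Sdha was higher in the RV as well, with a log2 fold change of 1.34 (SE 0.16, adjusted p = 5.92e-12). At the other end stood Ndufa4l2, the alternative form of the complex IV subunit Ndufa4, with 12.4 to 40.3 (median 26.7) against 65.7 to 266 (median 142) (log2 fold change -2.53, SE 0.32, adjusted p = 1.00e-10). Cox4i2 had 13.8 to 78.7 (median 42.3) in the RV and 109 to 347 (median 261) in the LV (log2 fold change -2.37, SE 0.30, adjusted p = 7.66e-11). Atp5g1 had 12450.3 to 15952 (median 13320.3) against 24130.0 to 43299.9 (median 29128) (log2 fold change -1.19, SE 0.16, adjusted p = 1.19e-09), and with a correction for gene length its log2 fold change was -0.74. The ventricles did not overlap for Ndufaf4, Uqcrb, Ndufa4l2, Cox4i2 or Atp5g1. Endothelial and mural marker shares were also higher in the older LV groups, and their part in the levels of Cox4i2 and Ndufa4l2 was not tested.

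Ndufaf4, Ndufa4l2 and Cox4i2 also led in banded older animals. In PAB-F 18 members were higher and 45 lower in the RV (background: 61.1% called, 32.1% higher, 29% lower; median -0.38), led by Ndufaf4 (1.66), Uqcrc2 (1.39) and Ndufs1 (1.32), with Ndufa4l2 (-2.42), Cox4i2 (-2.0) and Cox8b (-1.36) at the other end, in log2 fold change. In AOB-F 28 were higher and 18 lower (background: 67.1% called, 32% higher, 35.1% lower; median 0.12), led by Ndufaf4 (1.77), Uqcrb (1.75) and Ndufb3 (1.68), with Ndufa4l2 (-2.41), Cox4i2 (-2.13) and Atp5g1 (-0.77) lowest. With the length correction the calls were 24 higher and 21 lower in PAB-F (median -0.042) and 41 and 7 in AOB-F (median 0.31). No share of all genes is given here for these corrected counts. The log2 fold changes came to -0.70 for Cox8b in PAB-F and -0.48 for Atp5g1 in AOB-F.

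In younger animals the ventricles differed less. In Sham-H, 6 members were higher and 2 lower in the RV (background: 21% called, 9.62% higher, 11.4% lower; median -0.040, which turned to 0.069 without LV Sham-H replicate 4). Cox7c (log2 fold change 0.76, SE 0.27, adjusted p = 0.0394), Ndufb3, an accessory subunit of complex I (0.71), Ndufs1 (0.64), Atp5j2 (0.63), Sdha (0.54) and Ndufa5 (0.51) were higher, and Ndufa4l2 (-1.15) and Cox4i2 (-1.09) lower. Without the 4 libraries that stand apart, or without LV Sham-H replicate 4 alone, 0 were called. Without LV Sham-H replicate 5 there was 1, and without LV Sham-H replicate 3 or RV Sham-H replicate 5, 6 or 7 there were 5. In PAB-H 0 were called (background 0.125%, 22 at an unadjusted p under 0.05, DESeq2 0, median -0.24, or -0.20 without the libraries that stand apart and -0.16 without RV PAB-H replicate 2). Of all 11954 genes tested, 1303 had an unadjusted p under 0.05 in PAB-H and 2392 in AOB-H. In AOB-H 0 were called (background 7.98%, 15, DESeq2 1, median 0.20). With the animal as a block 27 were higher and 1 lower, and without RV AOB-H replicate 6 there were 4 calls (1 without LV AOB-H replicate 2 or 4). The background of 7.98% belongs to the fit without the block. The share of all genes called with the block is not given here, so the rise is not read as particular to the members. 80 of 82 fold changes in AOB-H were above 0, and without the libraries that stand apart the median was 0.077, against 0.20 with them and 0.077 without LV AOB-H replicate 6 alone.

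The RV to LV difference of the F stage was tested against that of the H stage in sham animals. It was shifted upwards, towards the RV, for 17 members and downwards for 23 (background: 41.6% called, 23% upwards, 18.6% downwards; median -0.22). With the length correction these were 19 and 6, and the median was 0.037. Without the libraries that stand apart they were 19 and 33, with a median of -0.31. The shares of all genes called under these settings are not given here. On the log2 scale the shift was 1.56 (SE 0.33, adjusted p = 0.000449) for Ndufaf4, 1.51 for Uqcrb and 1.49 (SE 0.28, adjusted p = 0.000222) for Uqcrc2. Downwards it was -1.38 (SE 0.48, adjusted p = 0.0166) for Ndufa4l2 and -1.29 for Cox4i2, followed by Atp5e, the epsilon subunit of the ATP synthase, with -1.14 (-0.66 with the length correction).

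The stages were also compared within each ventricle. In RV Sham-F against RV Sham-H 0 members were called by edgeR and by DESeq2 (background 0.0502%, 0 at an unadjusted p under 0.05, median 0.024). In LV Sham-F against LV Sham-H 34 were higher and 20 lower (background: 57.4% called, 27.8% higher, 29.6% lower; median 0.23). With the length correction 14 were higher and 21 lower (median -0.042), and without the libraries that stand apart 45 and 21 (median 0.31). These settings too are given without a background. Atp5e had 3694 to 9269 (median 4380.4) normalised read counts in LV Sham-F and 1586 to 3134 (median 2267) in LV Sham-H, without overlap (log2 fold change 1.12, SE 0.22, adjusted p = 1.65e-05), and with the length correction its log2 fold change was 0.63. Ndufa4l2 (1.4) and Cox4i2 (1.3) were also higher, and Uqcrb (-1.44), Ndufaf4 (-1.42) and Uqcrc2 (-1.37) lower. Uqcrc2 had 4276 to 7495 (median 5329) in LV Sham-F and 4779.7 to 21880.5 (median 16746) in LV Sham-H, and the groups overlapped. Age, time since surgery and any difference in handling between the stages cannot be told apart here.

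**Figure D4:**
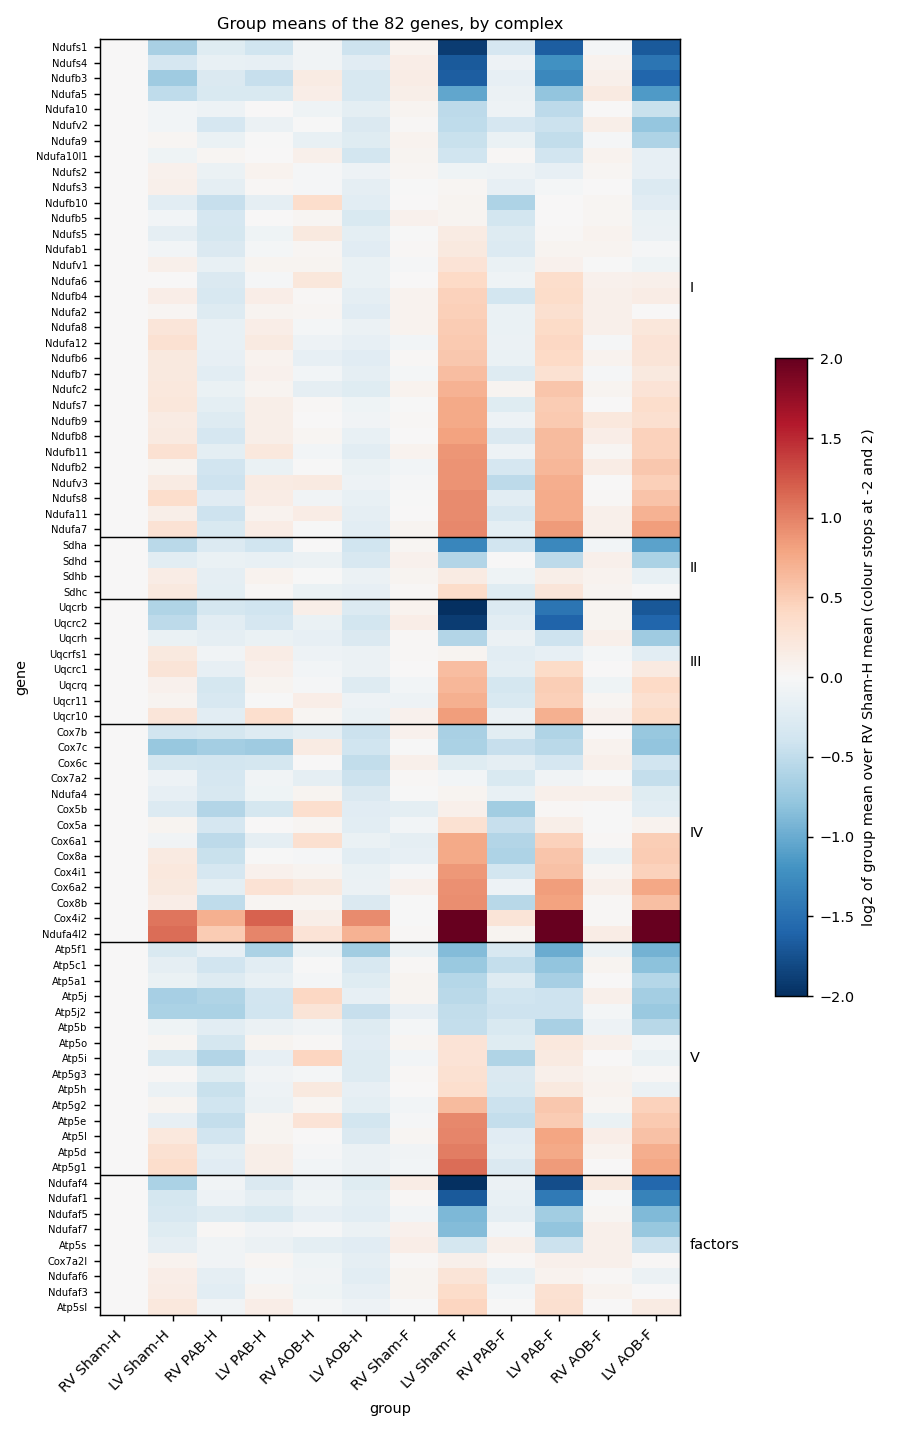
Log2 of each group mean over the RV Sham-H mean (colour, stopping at -2 and 2) for the 82 genes (rows, by complex) in the 12 groups (columns). The 3 older LV columns stand out with strong colours in both directions within each complex, and the RV columns are mostly pale, with Cox4i2 in RV PAB-H among the exceptions.

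Several subunits come in 2 forms, whose balance was taken as the log2 ratio of their FPKM values (0.1 added) in each library. 6 pairs were compared in 16 comparisons by exact two-sided permutation of the library labels, with Benjamini-Hochberg adjustment over the 96 tests. 17 passed (a count also reached without the libraries that stand apart, though not by the same tests, and 11 without RV Sham-H replicate 1, 5 or 7), of which 1 of 48 followed banding, 14 of 36 set RV against LV, and 2 of 12 set F against H. With the animal as a block (exact permutation of signs within RV and LV pairs) 0 of the 14 passed, the lowest adjusted p being 0.0750. The signs of 6, 7 or 9 pairs give few arrangements, so even the smallest possible p hardly passes after adjustment over 96 tests. This block therefore cannot decide whether the 14 differences hold within animals. Upon PAB, the ratio of Cox4i2 to Cox4i1 was -7.38 ± 0.62 (SD, n = 6) in RV PAB-H and -8.44 ± 0.26 (SD, n = 7) in RV Sham-H, without overlap (exact permutation p = 0.000583, the smallest that 1716 arrangements can give, adjusted p = 0.00932). Cox4i2 stayed far below Cox4i1 in both groups, at 7.61 against 1349 FPKM (medians of RV PAB-H). The adjusted p of the ratio in RV PAB-H was 0.0559 once the tests of RV against LV, adjusted with it, used the block. In RV PAB-F the ratio differed by 0.71 from RV Sham-F (exact permutation p = 0.0527) and did not pass. Markers of mural cells took 0.0349% to 0.104% of counts in RV PAB-H (median 0.0425%) and 0.0260% to 0.0375% in RV Sham-H (median 0.0314%), and their part was not tested.

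Between the ventricles of Sham-F animals 4 of 6 ratios were lower in the RV. The ratio of Ndufa4l2 to Ndufa4 was -8.26 to -7.17 (median -7.71) in RV Sham-F and -6.63 to -4.29 (median -5.21) in LV Sham-F, a difference of -2.38 (adjusted p = 0.00197, exact permutation test). Atp5g1 to Atp5g3, 2 genes that encode the same ring subunit c with different leader peptides, was -0.26 to 0.080 (median -0.028) against 0.50 to 1.24 (median 0.79), a difference of -0.89 (adjusted p = 0.00197, exact permutation test). Neither ratio overlapped between the ventricles. Cox4i2 to Cox4i1 differed by -1.55 (adjusted p = 0.00527, exact permutation test) and Atp5g2 to Atp5g3 by -0.41 (adjusted p = 0.0380, exact permutation test). Ndufa4l2 to Ndufa4 and Atp5g1 to Atp5g3 also passed in Sham-H (-1.13 and -0.29), PAB-F (-1.93 and -0.71) and AOB-F (-2.40 and -0.72), and both were higher in LV Sham-F than in LV Sham-H (by 1.23 and 0.52). Cox6a1 to Cox6a2 and Cox8a to Cox8b, the general forms over the heart and muscle forms, passed in 0 of 16 comparisons each. In Sham-H, without the libraries that stand apart, the difference was -0.84 (adjusted p = 0.0766, exact permutation test) for Ndufa4l2 to Ndufa4, which no longer passed, and -0.17 (adjusted p = 0.0455, exact permutation test) for Atp5g1 to Atp5g3, and the LV difference between stages in Cox4i2 to Cox4i1 then passed, at 1.01 (adjusted p = 0.0360, exact permutation test).

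**Figure D5:**
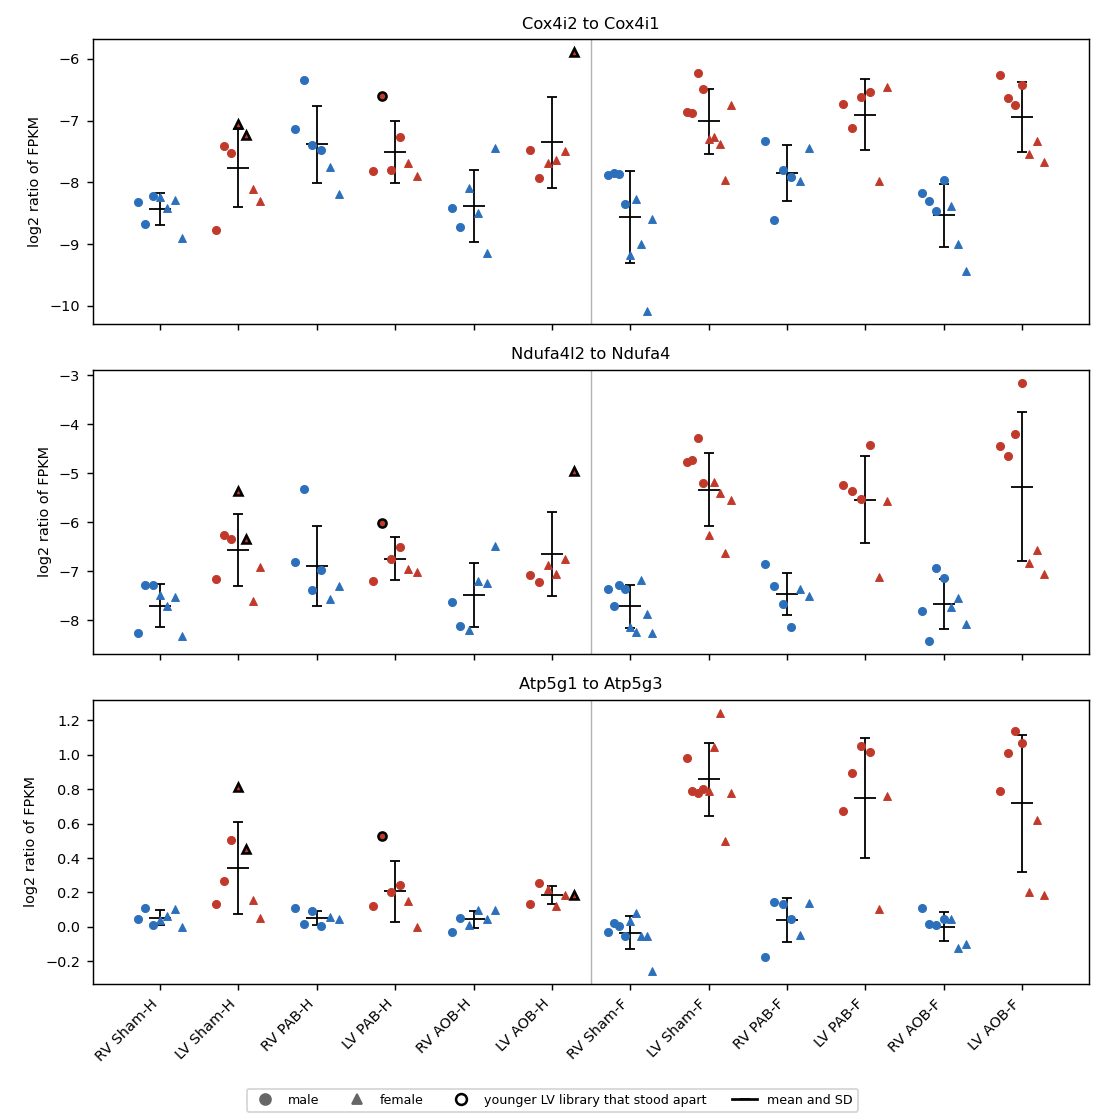
Log2 FPKM ratio of Cox4i2 to Cox4i1, Ndufa4l2 to Ndufa4 and Atp5g1 to Atp5g3 in each library (y axis) by group (x axis, RV in blue, LV in red), with circles for males, triangles for females, black outlines for the 4 younger LV libraries that stand apart, and bars for mean and SD. RV PAB-H lies above RV Sham-H for Cox4i2 to Cox4i1 (-7.38 against -8.44 in the mean), and the older LV groups lie above the older RV groups in the mean for all 3 ratios.

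Electron carriers and assembly genes outside the rule (58 listed, 45 tested) and known regulators (18 listed, 15 tested) were followed beside the subunits. Upon PAB, Etfb, the beta subunit of the flavoprotein that passes electrons from fatty acid oxidation to ubiquinone, was the 1 carrier gene called in each stage (background: 4.5% of all genes called in RV PAB-H and 11.1% in RV PAB-F). Its log2 fold change was -0.48 (SE 0.14, adjusted p = 0.0352) in RV PAB-H and -0.55 (SE 0.14, adjusted p = 0.00477) in RV PAB-F. Of the regulators 0 were called in RV PAB-H (2 at an unadjusted p under 0.05) and 1 in RV PAB-F: Esrrg, an oestrogen-related receptor, had 908 to 1531 (median 1262) normalised read counts against 1425 to 1784 (median 1723) in RV Sham-F (log2 fold change -0.43, SE 0.12, adjusted p = 0.0167). Ppargc1a had 888 to 1804 (median 1631) against 1811 to 2624 (median 2104) (log2 fold change -0.54, SE 0.21, adjusted p = 0.0696) and missed the threshold.

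In LV AOB-F 5 of 45 carrier and assembly genes were lower and 0 higher (background: 12.9% of all genes called, 4.35% called lower), among them Cox16, an assembly factor of complex IV (log2 fold change -0.48, SE 0.11, adjusted p = 0.00250), Etfb (log2 fold change -0.44, SE 0.13, adjusted p = 0.0166) and Cyc1, cytochrome c1 of complex III (log2 fold change -0.40, SE 0.14, adjusted p = 0.0466). 2 regulators were higher, Tfam, which packages mitochondrial DNA (log2 fold change 0.53, SE 0.16, adjusted p = 0.0161), and Gabpb1, a partner of GABPA (log2 fold change 0.37, SE 0.12, adjusted p = 0.0254), and 1 was lower, the mitochondrial RNA polymerase Polrmt (log2 fold change -0.35, SE 0.11, adjusted p = 0.0259). In LV AOB-H and in the ventricles that banding did not load, 0 genes of either list were called by edgeR, with at most 8 carrier genes (LV AOB-H) and 2 regulators (LV PAB-F) at an unadjusted p under 0.05.

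Between the ventricles of Sham-F, 25 of 45 carrier and assembly genes were higher and 10 lower in the RV, and 7 of 15 regulators were higher and 4 lower (background: 35.6% of all genes higher, 38.6% lower). Cytochrome c (Cycs, 1.68 on the log2 scale) and Etfdh (1.97) were higher and Cyc1 lower (-0.62). Among regulators Ppargc1a (1.57), Esrrg (1.05), Gabpa (1.68), Tfam (1.34) and Tfb2m (1.97) were higher in the RV, and Esrra (-0.86) and Nrf1 (-0.64) lower. These lists too had members on both sides, as the subunits did.

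Over the 82 libraries most members moved together. The correlation of a member's log2 CPM with the median of the other members had a median of 0.72 and reached 0.92, and 11 members were below 0. The lowest 5 were Ndufaf4 (-0.39), Ndufs4, an accessory subunit of complex I (-0.34), Ndufs1 (-0.32), Ndufaf1, an assembly factor of complex I (-0.30), and Uqcrc2 (-0.30). Over the 41 RV libraries alone the median was 0.82, 2 members were below 0, and these 5 genes stood at 0.49, 0.67, 0.70, 0.58 and 0.69. These values describe libraries that share depth and composition, and RV and LV libraries of 1 animal are not independent.

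Females and males of the sham groups were compared in a fit with a mean per group and sex (12421 genes tested). In LV Sham-H 3 of 82 members were called, all higher in females (background 4.46%, with 116 genes higher and 438 lower). The share of members called was no larger than among all genes. They were Uqcr10 (log2 fold change 0.77, SE 0.22, adjusted p = 0.0387), Atp5l, subunit g of the ATP synthase (log2 fold change 0.78, SE 0.23, adjusted p = 0.0421), and Ndufa4 (log2 fold change 0.69, SE 0.22, adjusted p = 0.0483). The module level was 8.07 to 8.32 (median 8.22) in its 4 females and 7.77 to 7.84 (median 7.82) in its 3 males. However, 2 of those females are libraries that stand apart. Without the libraries that stand apart 0 members were called (12 at an unadjusted p under 0.05), and of 12379 genes tested 5 were higher and 2 lower. In LV Sham-F 1 member was lower in females (background 6.09%), Ndufa4l2 (log2 fold change -1.08, SE 0.30, adjusted p = 0.0207). In the RV 0 were called in Sham-H (background 0.0242%, 9 at an unadjusted p under 0.05) and 0 in Sham-F (background 0.129%, 1). Within the loaded RV, the male and female medians upon PAB were -0.33 and -0.074 in PAB-H and -0.31 and -0.23 in PAB-F. The difference between the sexes was called for 0 members at either stage (0 in PAB-H and 1 in PAB-F at an unadjusted p under 0.05). It was called for 0 of all 12421 genes too.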

How the data were processed

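Total RNA of isolated cardiomyocytes from the RV and LV of 41 rats was depleted of ribosomal RNA and sequenced from both ends. Per the paper's methods and the labels, the authors trimmed reads with Trim Galore, aligned them with STAR, used featureCounts to count reads on genes in the nf-core pipeline, and deposited raw counts for 17337 genes. Normalized counts, a signal value, were made by the authors with DESeq2 1.28.1, as counts over 1 size factor per library, and FPKM values were deposited beside them. Per the paper's methods, reads that overlapped more than 1 gene were not assigned. How reads that map to several places were treated and whether counting used strand are not given in the sources used here. Total counts were 6675287 to 19665439 per library, which limits the precision for low genes such as Ndufa4l2 and Cox4i2.

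Groups came from the sample labels. Raw counts were tested with edgeR 4.0.16 in R 4.3.3 (quasi-likelihood, TMM factors, filterByExpr, 1 mean per group over 82 libraries, 11954 genes), and FPKM values were used for levels between genes and for ratios of subunit forms, with exact permutation tests (Python 3.11.15, NumPy 2.4.6, pandas 2.3.3). The authors' normalized counts entered no test. A gene was called at a Benjamini-Hochberg adjusted p under 0.05. Labels tie RV and LV libraries of the same replicate number to 1 animal, and such libraries departed from their group means together, with a median correlation of 0.186 to 0.297 per condition, against -0.0686 to -0.0142 for different animals. Banded and sham libraries that share a number come from different animals and are not pairs.

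The members, lists and tests were chosen with earlier results of these data known. Genes named are 20 core subunits and the 6 pairs of forms, the 3 called genes with the largest change in each direction per comparison, the highest and lowest gene of each complex by FPKM and the 5 genes with the lowest correlation with the others. A few, such as Atp5j2, Cox7c, Ndufb11, Cox7b and the remaining called genes, and the carriers and regulators with values, were added after their values were seen, as was the choice of the pairs Uqcrc1 with Uqcrc2 and Ndufs1 with Ndufs8. Alternatives were other size factors, no low-count filter, DESeq2 1.42.0, sex or the first principal component as covariate, a lowess correction for gene length, a block by animal or number, a fit to 2 groups, leaving out each library, each sex alone and leaving out the 4 younger LV libraries that stand apart, the last 2 and the component chosen after seeing the data. The functions were tested on simulated data. Promoters are 250 bases before the RefSeq start on GRCr8, a build other than that of the counts, and were matched by gene ID. Figures were drawn with matplotlib 3.10.9.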

Additional observations from a re-analysis of the deposited data

Results flagged for a closer look

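The module level, its share of counts and 8 log2 ratios were screened in each group, 10 measures in 12 groups, for a lowest or highest library whose distance to the nearest other library is large against the group's whole range (Dixon's 95% limits). 18 of 120 groups had such a library, and chance gives about 1 in 20.

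LV AOB-H replicate 6 was the most frequent. Its median log2 CPM over the members was 6.773 and the members took 2.411% of its counts. Its log2 ratio was -5.894 for Cox4i2 to Cox4i1, -2.565 for Cox8a to Cox8b and -4.944 for Ndufa4l2 to Ndufa4. The RV library of the same animal, RV AOB-H replicate 6, had a median log2 CPM of 7.562 and a share of 3.322%. These libraries held 6675287 and 9257139 counts, the fewest of their groups.

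LV PAB-H replicate 2 had a share of 5.068% and log2 ratios of -2.143 for Uqcrc2 to Uqcrc1 and -0.4715 for Ndufs1 to Ndufs8. LV Sham-H replicate 4 had -2.982 for Uqcrc2 to Uqcrc1, and LV AOB-H replicate 3 (-0.6702) and RV Sham-H replicate 2 (-0.1299) were lowest in their groups. Single libraries also lay apart for Cox6a1 to Cox6a2 (RV PAB-F replicate 1, -3.741), Cox8a to Cox8b (LV Sham-F replicate 4, -4.338), Ndufa4l2 to Ndufa4 (RV PAB-H replicate 2, -5.317), Atp5g1 to Atp5g3 (RV Sham-F replicate 9, -0.2575) and Atp5g2 to Atp5g3 (LV PAB-F replicate 5, -2.71).

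By a test of the difference itself, the RV to LV difference of 40 members was not the same in Sham-F as in Sham-H. The same kind of test found that the response of 2 members to AOB-F in the LV (Cox7b and Atp5g1) differed between females and males. Among all genes tested, 41.6% were called for the difference between the stages and 3.26% for that between the sexes. Neither count is therefore read as particular to the members. The causes were not tested.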

How the results depend on the processing

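For the 41 gene results that the rule on size chose per comparison, no direction reversed under the alternatives they were recomputed with. These genes were chosen as called and largest, and 291 recomputed values stayed called while 31 missed the threshold. Uqcr10 in LV AOB-F missed it in 5 of 10 alternatives and Ndufb10 in RV PAB-F in 4 of 10. Other named genes were not recomputed. By contrast, the module medians between the ventricles of Sham-F, between LV stages and for the RV to LV difference between stages changed sign with the correction for gene length, as given beside them. Counts of members called in LV AOB-F and RV PAB-F moved with the fit, in opposite directions. In this section the share of all genes called under an alternative is given only where printed. Other counts are not read as results about the members. A fit to the groups compared alone called 6 members in RV PAB-H, 20 in RV PAB-F, 0 in LV AOB-F and 4 between the ventricles of Sham-H. DESeq2 called 7 in RV PAB-F and 1 between the ventricles of AOB-H. Correction for gene length left 5 calls in LV AOB-F, 35 between LV Sham-F and LV Sham-H and 25 for the RV to LV difference between stages, and gave 2 between the ventricles of AOB-H. Sex as a covariate gave 1 there and the first principal component as a covariate 8 in RV PAB-F. The cause of these shifts was not tested. The fits to the groups compared also held fewer libraries.

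With the animal as a replicate block, 28 members were called between the ventricles of AOB-H, and no other count of calls between the ventricles moved by over 1.5 times. A replicate block by number, which does not pair the animals of banded and sham groups, gave 30 calls for RV PAB-H and 0 each for LV AOB-F and RV PAB-F. For the subunit forms, with the exact paired test over the animals for RV against LV, 0 of 96 tests passed after adjustment over all of them. The few pairs bound the smallest p of that paired test, so it cannot decide the point. Without the 4 younger LV libraries that stand apart 0 members were called between the ventricles of Sham-H, and the median of LV AOB-H went to 0.00042. Males alone gave 0 calls in RV PAB-F, where of all 12421 genes tested 209 were higher and 80 lower. They gave 0 in LV AOB-F as well, where 0 of all genes were called. Females alone gave 0 in RV PAB-F (84 of all genes higher and 4 lower). They gave 35 in LV AOB-F (background 25.2%) and 34 in LV AOB-H (background 13.7%). Without the libraries that stand apart, 0 members and 0 of all genes were called in LV AOB-H females.

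Leaving out each library gave 0 to 8 members in RV PAB-H, 0 to 7 in RV PAB-F, 0 to 1 in LV AOB-H and 1 to 18 in LV AOB-F, and 0 to 0 in the 4 ventricles that banding did not load and in both differences of responses. Between the ventricles the ranges were 0 to 11 (Sham-H), 0 to 0 (PAB-H), 0 to 4 (AOB-H), 61 to 65 (Sham-F), 54 to 65 (PAB-F) and 38 to 51 (AOB-F). Between the stages they were 0 to 0 in the RV, 46 to 63 in the LV and 34 to 46 for the difference, and 11 to 19 for the subunit forms.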
